A study of Mus musculus with 6 samples.

Results

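The genes described here are 35 that macrophages and other phagocytes use, and the cells in which they were measured had been sorted as smooth muscle. They were found as every probe set to which the platform annotation gives 1 gene symbol equal to a listed name, which gave 65 probe sets for all 35 genes, out of 45037 probe sets and 18193 genes on the array. Bladder cells came from male FVB/N mice at postnatal day 2 that carried both SMAA/EYFP and SMGA/EGFP, so every group had the same pair of transgenes. The gamma actin promoter of smooth muscle (SMGA, gene Actg2) drives EGFP, and its alpha actin promoter (SMAA, gene Acta2) drives EYFP. Cells positive for EGFP and negative for EYFP (EGFP+EYFP-, 3 arrays) were set against cells positive for both (EGFP+EYFP+, 3 arrays), and both groups are labelled as detrusor, the bladder's muscle. Samples were not pooled, but no label ties each array to a mouse of its own, so every p-value here is set against a spread between arrays that may be technical.

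Macrophages are phagocytes of the innate immune system that settle in most tissues before birth and clear dying cells, microbes and debris there. They recognise their targets through Fc receptors, complement and scavenger receptors, signal through adaptor proteins that carry tyrosine activation motifs (ITAMs), and digest what they engulf with lysosomal enzymes, antimicrobial proteins and the oxidants of the phagocyte NADPH oxidase. Many genes of the macrophage lineage are under the transcription factor PU.1, the product of Spi1, which binds a purine-rich sequence called the PU box.

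The PU box was looked for in the promoters of the listed genes, whether or not they differed between the sorted groups. The search used the letters GAGGAA on both strands, in windows from 250 bases before to 50 bases after each gene's start, taken from RefSeq (build GRCm38.p6). Of the 35 genes 29 had a window, and 17 of these 29 (58.6%) held the letters, against 8446 of 27025 genes in the table (31.3%). Counted by window, 18 of 33 (54.5%) held them, against 28.3% of 32851 windows. Fcgr3 and Ptprc have overlapping windows, which count separately here. The stretches shown are the 100 bases before the start of the genes that had 1 window, passed the test described below and held the letters in that stretch. They run 5′ to 3′ on the gene's own strand, and capitals mark the PU box, or its reverse complement where it lies on the opposite strand.

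C1qb, chr4:136886201-136886300, minus strand: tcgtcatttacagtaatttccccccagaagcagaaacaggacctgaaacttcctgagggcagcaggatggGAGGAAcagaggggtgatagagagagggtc
Cd53, chr3:106790150-106790249, minus strand: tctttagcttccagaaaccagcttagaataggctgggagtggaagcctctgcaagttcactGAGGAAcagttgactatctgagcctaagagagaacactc
Fcgr1, chr3:96293970-96294069, minus strand: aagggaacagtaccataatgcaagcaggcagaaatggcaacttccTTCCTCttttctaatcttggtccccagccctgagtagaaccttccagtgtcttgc
Laptm5, chr4:130913216-130913315, plus strand: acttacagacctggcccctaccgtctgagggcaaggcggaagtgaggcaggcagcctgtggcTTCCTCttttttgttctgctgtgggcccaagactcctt
Plek, chr11:17008719-17008818, minus strand: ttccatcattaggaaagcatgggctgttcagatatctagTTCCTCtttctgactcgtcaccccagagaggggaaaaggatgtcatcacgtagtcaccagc

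The match began 30 bases before the gene's start in C1qb, 39 in Cd53, 55 in Fcgr1, 38 in Laptm5 and 61 in Plek. The letters were also held by windows of genes that did not pass, among them Trem2, Aif1 and Vav1. The windows of Nrros, Cd163, Fcgr2b and Lyz2, which rose, did not hold them. Whether the matches bear on the changes was not tested. A match of these letters is a description of the sequence and not a binding site. Spi1 itself did not separate the groups. Its signal was 216, 120 and 185 in the EGFP+EYFP- arrays, against 114, 124 and 190 in the EGFP+EYFP+ arrays (adjusted p = 0.925), and these values overlap.

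All arrays had been scaled to the same trimmed mean signal of 1500.01. Median signal over all probe sets was 153 to 199 in the EGFP+EYFP- arrays and 147 to 199.8 in the EGFP+EYFP+ arrays. The ratio of 3′ to 5′ signal of the Actb control, which is higher where RNA is degraded or amplified from short stretches, was 5.97, 5.46 and 3.23 in the EGFP+EYFP- arrays and 4.66, 2.78 and 8.02 in the EGFP+EYFP+ arrays. These ratios overlap between the groups. Each gene is represented by its brightest probe set, by mean over the 6 arrays, and its signal is in arbitrary units. A fold is the ratio of mean signals, and a log2 fold change is EGFP+EYFP- over EGFP+EYFP+ after adding 25.042 to each signal, which makes the change of dim genes look smaller. The number of arrays limits the precision.

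Phagocyte genes were higher in the EGFP+EYFP- arrays, and most had a mean signal above a dim level, defined below, in both sorted groups. Of the 35 genes 21 rose past an adjusted p of 0.05 in limma, 0 fell and 14 did not pass, while 1.77% of all genes rose, 0.797% fell and 2.57% did either. All 3 EGFP+EYFP- values lay above all 3 EGFP+EYFP+ values for 31 of the 35, against 10.1% of all genes, and below them for 0, against 9.74% of all genes. The median log2 fold change was 2.68 over the 35 genes and -0.03 over all 18193 genes. Of the 21 that rose, 20 had a fold between 4 and 12, and Nrros had 43.6. The list was chosen with earlier results of these data known, so its counts describe the members and are not independent evidence of their direction. In sorted bulk samples fewer phagocytes and less phagocyte RNA per cell cannot be told apart. The 21 became 10 without EGFP+EYFP- array 3 and 13 without EGFP+EYFP- array 1, with 0 lower in either.

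In absolute terms the median signal of the 35 genes was 1933 in the EGFP+EYFP- group and 335 in the EGFP+EYFP+ group, while the median over all genes was 666 and 612. A signal of 87.6, the 40th percentile of probe set means, is used here as the level of a dim probe set. In the EGFP+EYFP- group 35 of the 35 genes had a mean above it, and in the EGFP+EYFP+ group 30 did. All 3 values of a group lay above it for 34 genes in the EGFP+EYFP- group and for 22 in the EGFP+EYFP+ group. The signals of the 35 probe sets summed to between 127690.4 and 185719 per array in the EGFP+EYFP- group and to between 20593 and 28733 in the EGFP+EYFP+ group. Within the EGFP+EYFP- group array 1 was the highest of the 3 for 23 genes and array 2 the lowest for 19. No EGFP+EYFP+ array stood out in this way, the highest value lying on array 1 for 10 genes, on array 2 for 13 and on array 3 for 12.

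**Figure D1:**
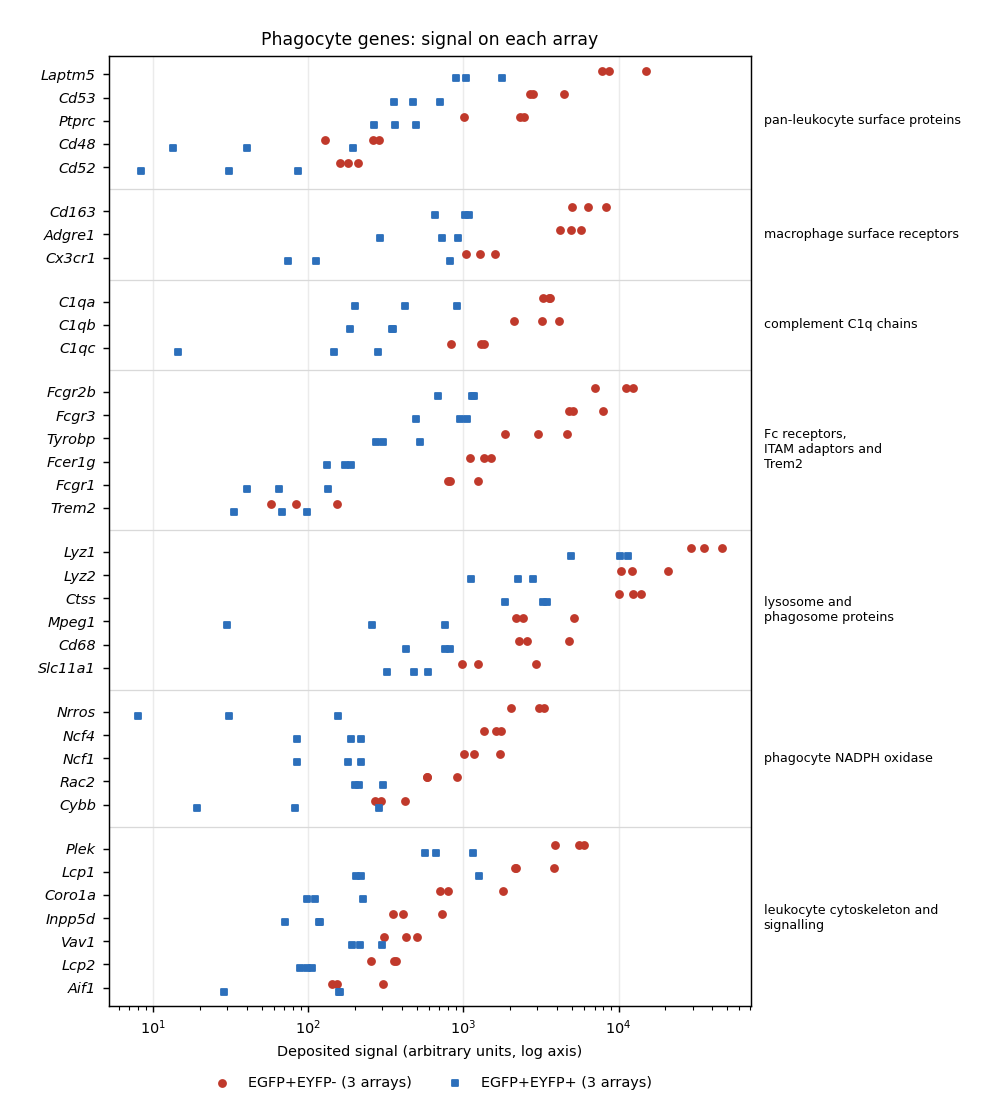
Deposited signal (arbitrary units, log axis) of the 35 phagocyte genes on each array, by role, with red circles for the 3 EGFP+EYFP- arrays and blue squares for the 3 EGFP+EYFP+ arrays. The groups do not overlap for 31 genes, and the 4 that overlap are Cd48, Trem2, Cybb and Aif1.

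Among the 3 macrophage surface receptors, 2 rose. Adgre1, an adhesion receptor widely used to mark mouse macrophages, had signals of 5705, 4188 and 4919 in the EGFP+EYFP- arrays, against 917, 722 and 288 in the EGFP+EYFP+ arrays. The groups were far apart, 7.69-fold by their means, with a log2 fold change of 3.03 (SE 0.41, adjusted p = 0.0102). Cd163, the scavenger receptor for haemoglobin bound to haptoglobin, had 8259, 6393 and 4986 in the EGFP+EYFP- arrays, against 659, 1017 and 1092 in the EGFP+EYFP+ arrays. Its fold was 7.09 and its log2 fold change 2.79 (SE 0.30, adjusted p = 0.0041). Cx3cr1, the receptor of the chemokine fractalkine, had 1044, 1284 and 1607 in the EGFP+EYFP- arrays, against 112, 818 and 74.0 in the EGFP+EYFP+ arrays, and did not pass (log2 fold change 2.55, SE 0.74, adjusted p = 0.189). Its EGFP+EYFP+ array 2 stood high, and without that array the adjusted p was 0.0157. A dimmer Cx3cr1 probe set stayed at or below 13.7 on every array. The Adgre1 call was lost without EGFP+EYFP- array 1 (adjusted p = 0.0509) or 3 (adjusted p = 0.0603).

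Of the 5 membrane proteins shared by many kinds of leukocyte, 3 rose. Laptm5, a lysosomal membrane protein of blood cells, had 15074, 7845 and 8745 in the EGFP+EYFP- arrays, against 889, 1040.1 and 1774 in the EGFP+EYFP+ arrays (log2 fold change 3.07, SE 0.34, adjusted p = 0.00456). Cd53, a tetraspanin, had 4442, 2824 and 2689 in the EGFP+EYFP- arrays, against 356, 474 and 703 in the EGFP+EYFP+ arrays (log2 fold change 2.65, SE 0.35, adjusted p = 0.0086). Ptprc, which encodes the common leukocyte antigen CD45, had 2473, 1007 and 2319 in the EGFP+EYFP- arrays, against 361, 266 and 491 in the EGFP+EYFP+ arrays. The groups did not overlap, but the margin was narrow (log2 fold change 2.23, SE 0.43, adjusted p = 0.0439), and the call was lost without any 1 array other than EGFP+EYFP- array 2, with adjusted p up to 0.201. Cd52, a lipid-anchored glycoprotein of lymphocytes and macrophages, averaged 183 ± 24.7 in the EGFP+EYFP- arrays and 41.6 ± 39.7 in the EGFP+EYFP+ arrays (SD, n = 3 each) and did not pass (adjusted p = 0.201). Cd48, a cell adhesion molecule of the SLAM family, averaged 225 ± 85.1 in the EGFP+EYFP- arrays and 83.1 ± 98.1 in the EGFP+EYFP+ arrays (SD, n = 3 each), with values that overlap.

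The 3 chains of complement C1q, the molecule that starts the classical pathway and that tissue macrophages are a main source of, had similar folds. C1qa had 3564, 3251 and 3593 in the EGFP+EYFP- arrays, against 419, 907 and 200.1 in the EGFP+EYFP+ arrays (log2 fold change 2.94, SE 0.47, adjusted p = 0.0213). C1qb had 4159, 2118 and 3229 in the EGFP+EYFP- arrays, against 187, 352 and 345 in the EGFP+EYFP+ arrays (log2 fold change 3.32, SE 0.38, adjusted p = 0.00505). C1qc had 1306, 829 and 1362 in the EGFP+EYFP- arrays, against 14.4, 283 and 146 in the EGFP+EYFP+ arrays. Its groups did not overlap either, but its EGFP+EYFP+ values were spread widely and it did not pass (log2 fold change 3.19, SE 0.71, adjusted p = 0.0809). The other probe sets of C1qb, 2 in number, both rose, with log2 fold changes of 2.0 and 2.77. C1qa missed the threshold without any 1 of the EGFP+EYFP- arrays or EGFP+EYFP+ array 1, with adjusted p between 0.0828 and 0.106.

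Fc receptors and ITAM adaptors rose together, 5 of the 6 genes in a group that also holds Trem2. Fcgr2b, the inhibitory receptor for IgG, had 11211, 7029 and 12397 in the EGFP+EYFP- arrays, against 1142, 681 and 1177 in the EGFP+EYFP+ arrays, a log2 fold change of 3.32 (SE 0.31, adjusted p = 0.00257). Fcgr3, an activating low-affinity IgG receptor, had 7887, 5108 and 4822 in the EGFP+EYFP- arrays, against 1051, 954 and 498 in the EGFP+EYFP+ arrays (log2 fold change 2.83, SE 0.35, adjusted p = 0.00667). Fcgr1, the high-affinity IgG receptor, had 1251, 820.4 and 796 in the EGFP+EYFP- arrays, against 135, 40.4 and 64.3 in the EGFP+EYFP+ arrays (log2 fold change 3.30, SE 0.48, adjusted p = 0.0139). By their brightest probe sets, activating and inhibitory receptors thus lay in the same range of folds. Their transcripts are similar in the extracellular part, and the brightest Fcgr2b probe set carries a suffix for shared probes. Signals of Fcgr2b and Fcgr3 may therefore share RNA, which was not tested. Fcgr2b probe sets without that suffix had log2 fold changes of 1.93 and 3.14, both past the threshold, and -0.44 for a dim one that did not pass. A second Fcgr1 probe set had 2.03 and did not pass.

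Fcer1g, the signalling chain shared by activating Fc receptors, had 1512, 1095 and 1362 in the EGFP+EYFP- arrays, against 131, 172 and 188 in the EGFP+EYFP+ arrays (log2 fold change 2.83, SE 0.36, adjusted p = 0.00756). Tyrobp, the adaptor DAP12, had 4659, 1856 and 3029 in the EGFP+EYFP- arrays, against 272, 521 and 305 in the EGFP+EYFP+ arrays (log2 fold change 2.99, SE 0.41, adjusted p = 0.0108). Both adaptors were separated by more than the spread between arrays. Trem2, a lipid-sensing receptor that signals through Tyrobp, had signals around the dim level in both groups, with 57.9, 152 and 83.3 in the EGFP+EYFP- arrays, against 98.5, 33.1 and 67.9 in the EGFP+EYFP+ arrays. The Trem2 values overlap, and the log2 fold change of 0.42 (SE 0.50, adjusted p = 0.861) was smaller than its error and the smallest of the 35. Without EGFP+EYFP- array 3 the adjusted p was 0.0582 for Fcer1g and 0.0652 for Tyrobp, and Fcgr1 missed the threshold without any 1 of the EGFP+EYFP- arrays (0.0698 to 0.0758).

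**Figure D2:**
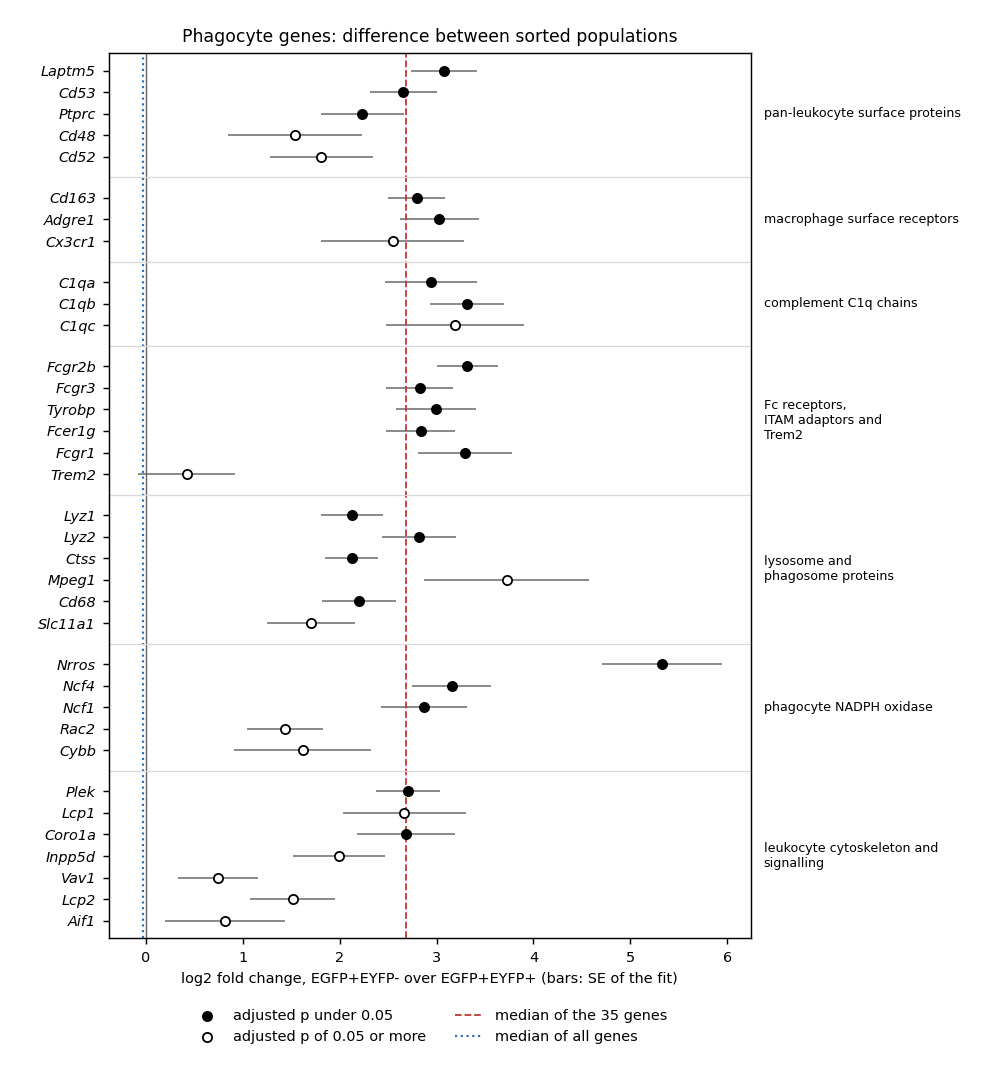
Log2 fold change, EGFP+EYFP- over EGFP+EYFP+, of the 35 phagocyte genes by role, with bars for the SE of the limma fit, filled circles for the 21 genes past the threshold and open ones for the other 14. All 35 values lie above 0, from 0.42 for Trem2 to 5.33 for Nrros, around a median of 2.68 (dashed), while the median of all genes (dotted) is -0.03.

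Of the 6 genes of the lysosome and phagosome, 4 rose. Lyz2, the lysozyme of macrophages, had 20749, 12148 and 10311 in the EGFP+EYFP- arrays, against 2829, 2259 and 1117 in the EGFP+EYFP+ arrays (log2 fold change 2.82, SE 0.38, adjusted p = 0.0104). Ctss, the protease cathepsin S that trims proteins for antigen presentation, had 13987, 12389 and 10094 in the EGFP+EYFP- arrays, against 3455, 1846 and 3249 in the EGFP+EYFP+ arrays, a fold of 4.27 (log2 fold change 2.12, SE 0.28, adjusted p = 0.0086). Cd68, a glycoprotein of lysosomes and endosomes, had 4807, 2285 and 2552 in the EGFP+EYFP- arrays, against 764, 815 and 428 in the EGFP+EYFP+ arrays (log2 fold change 2.19, SE 0.38, adjusted p = 0.0295). The EGFP+EYFP+ signals of Ctss and Lyz2 were still far above the dim level on every array. The Cd68 call was lost without any 1 of the 6 arrays (adjusted p 0.0574 to 0.106), and that of Ctss without EGFP+EYFP- array 2 (adjusted p = 0.0519).

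Lyz1, the lysozyme known from Paneth cells of the gut, is a near copy of Lyz2, and its probe sets did not speak with 1 voice. The brightest had 46253, 35776 and 29525 in the EGFP+EYFP- arrays, against 11559, 10242 and 4910.2 in the EGFP+EYFP+ arrays (log2 fold change 2.13, SE 0.32, adjusted p = 0.0163), and a second one had a log2 fold change of 2.64. Both carry the suffix for probes that can match other genes. The Lyz1 probe set without that suffix had 91.3, 83.7 and 103 in the EGFP+EYFP- arrays, against 70.7, 123 and 16.03 in the EGFP+EYFP+ arrays, with a log2 fold change of 0.49 (SE 0.54, adjusted p = 0.844). The bright signals named Lyz1 may therefore hold Lyz2 RNA, which was not tested, and the Lyz1 call is uncertain. It was also lost without any 1 of the EGFP+EYFP- arrays or EGFP+EYFP+ array 2 (adjusted p 0.0504 to 0.0797).

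Mpeg1, a pore-forming protein that acts on engulfed bacteria, had 5174, 2186 and 2410 in the EGFP+EYFP- arrays, against 762, 257 and 29.7 in the EGFP+EYFP+ arrays. Its log2 fold change of 3.72 was above the median of the set, but the EGFP+EYFP+ values differed widely from each other and it did not pass (SE 0.85, adjusted p = 0.0879). It passed without EGFP+EYFP+ array 1 (adjusted p = 0.0396). Slc11a1, a metal transporter of the phagosome membrane, had 2932, 1236 and 978 in the EGFP+EYFP- arrays, against 591, 480 and 323 in the EGFP+EYFP+ arrays, did not overlap and did not pass (log2 fold change 1.70, SE 0.46, adjusted p = 0.149).

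The phagocyte NADPH oxidase makes superoxide from a catalytic membrane subunit and cytosolic subunits that join it on activation. Of the 5 oxidase genes on the list 3 rose, namely Ncf1, Ncf4 and Nrros. Ncf1, the organiser, had 1713, 1009 and 1173 in the EGFP+EYFP- arrays, against 182, 219 and 84.4 in the EGFP+EYFP+ arrays (log2 fold change 2.87, SE 0.44, adjusted p = 0.0169). Ncf4, which ties the complex to phagosome lipids, had 1615, 1355 and 1744 in the EGFP+EYFP- arrays, against 85.1, 218 and 188 in the EGFP+EYFP+ arrays (log2 fold change 3.15, SE 0.41, adjusted p = 0.0086). The catalytic subunit Cybb had 270.2, 421 and 295 in the EGFP+EYFP- arrays, against 19.1, 286 and 81.6 in the EGFP+EYFP+ arrays. Its values overlap and it did not pass (log2 fold change 1.62, SE 0.70, adjusted p = 0.461), and neither did its other probe sets (log2 fold changes 0.91 and 1.12). Rac2, the small GTPase of the complex in blood cells, averaged 690.1 ± 184 in the EGFP+EYFP- arrays and 238 ± 55.9 in the EGFP+EYFP+ arrays (SD, n = 3 each), did not overlap and did not pass (adjusted p = 0.161). The Ncf1 call was lost without any 1 of the EGFP+EYFP- arrays or EGFP+EYFP+ array 1 (adjusted p 0.053 to 0.0919), and that of Ncf4 without EGFP+EYFP- array 3 (0.0635).

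Nrros, an endoplasmic reticulum protein that lowers oxidant production by removing the catalytic subunit of the oxidase, and that in microglia presents latent TGF-beta, changed most of the 35. Its signal was 3086, 2022 and 3322 in the EGFP+EYFP- arrays, against 155, 7.96 and 30.7 in the EGFP+EYFP+ arrays. The lowest EGFP+EYFP- value was thus well above the highest EGFP+EYFP+ value, with a log2 fold change of 5.33 (SE 0.62, adjusted p = 0.00549). In the EGFP+EYFP+ group the mean of 64.4 was below the dim level, so the size of the fold rests on the offset and on single arrays. The log2 fold change was 6.01 without EGFP+EYFP+ array 1, 4.79 without EGFP+EYFP+ array 2 and 4.22 with an offset of 100.

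Among the 7 genes of the leukocyte cytoskeleton and of signalling below immune receptors, 2 rose. Plek, pleckstrin, a substrate of protein kinase C, had 3890.1, 5963 and 5595 in the EGFP+EYFP- arrays, against 565, 662 and 1151 in the EGFP+EYFP+ arrays (log2 fold change 2.70, SE 0.33, adjusted p = 0.00664), and a second Plek probe set rose with 2.44. Coro1a, an actin-binding protein that leukocytes place around phagosomes, had 1807, 795 and 708 in the EGFP+EYFP- arrays, against 98.8, 109.7 and 224 in the EGFP+EYFP+ arrays (log2 fold change 2.68, SE 0.50, adjusted p = 0.0405). Both genes were separated between the groups, Coro1a by less, and its call was lost without any 1 array other than EGFP+EYFP+ array 3 (adjusted p up to 0.153) and with quantile normalization (0.0668).

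Lcp1, an actin-bundling plastin of leukocytes, had 3850.4, 2190.4 and 2140 in the EGFP+EYFP- arrays, against 220, 1264 and 204 in the EGFP+EYFP+ arrays, and did not pass (log2 fold change 2.67, SE 0.64, adjusted p = 0.103). As with Cx3cr1, EGFP+EYFP+ array 2 stood high, and without it the adjusted p was 0.012. Inpp5d, a phosphatase that restrains Fc receptor signals, averaged 496 ± 203 in the EGFP+EYFP- arrays and 102 ± 27.1 in the EGFP+EYFP+ arrays (SD, n = 3 each, adjusted p = 0.0999), and a dimmer probe set had a log2 fold change of -1.14 that did not pass either (adjusted p = 0.553). Lcp2, a scaffold of immune receptor signalling, averaged 327 ± 64.7 in the EGFP+EYFP- arrays and 97.05 ± 8.89 in the EGFP+EYFP+ arrays (SD, n = 3 each, adjusted p = 0.186). Neither gene overlapped between the groups. Vav1, an exchange factor for Rac, and Aif1, an actin-bundling protein used to mark microglia, had log2 fold changes of 0.74 and 0.81 (adjusted p = 0.615 and 0.749), and the Aif1 values overlap.

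The 14 genes that did not pass were dimmer as a group than the 21 that rose, with a median EGFP+EYFP- signal of 454, against 3318. Their fit errors ran from 0.39 to 0.85, against 0.28 to 0.62. For 10 of the 14 the groups did not overlap. The same dependence on level appeared among the 65 probe sets, of which 28 rose, 0 fell and 37 did not pass, beside 1.07% of all probe sets that rose, 0.471% that fell and 1.54% that did either. All 3 EGFP+EYFP- values lay above the EGFP+EYFP+ values for 46 of the 65, against 7.78% of all probe sets, and below them for 1, a dim Cx3cr1 probe set, against 8.1%. Of the 30 probe sets that were not the brightest of their gene, 7 rose. Those 7 belong to Fcgr2b (3), C1qb (2), Plek (1) and Lyz1 (1). The remaining 23 did not pass, 5 of them with a value below 0, and 11 of the 30 lay below the dim level, none of which passed.

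**Figure D3:**
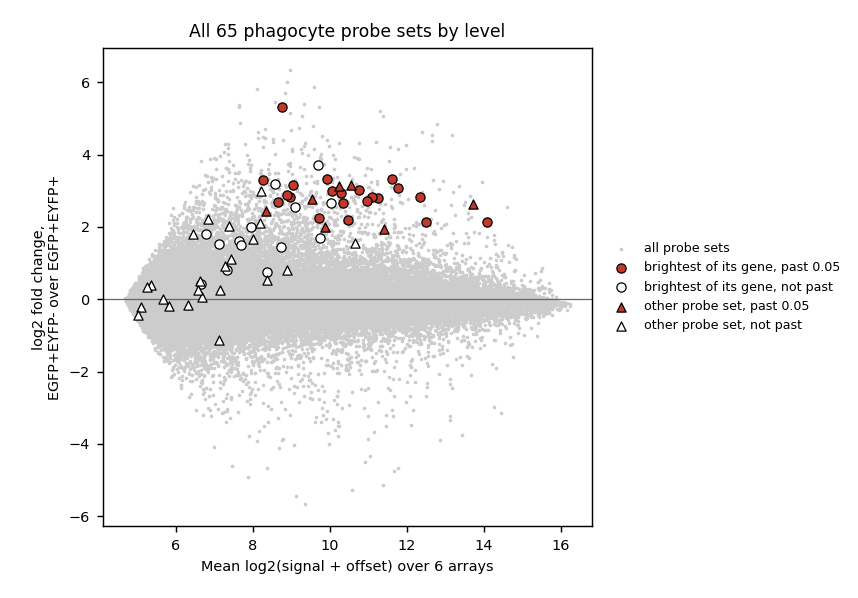
Mean log2(signal + offset) over the 6 arrays (x axis) against the log2 fold change, EGFP+EYFP- over EGFP+EYFP+ (y axis), for the 65 phagocyte probe sets over all probe sets (grey), with circles for the brightest probe set of each gene, triangles for the others and red for those past the threshold. The 28 red symbols all lie above 0, and the open triangles near 0 lie mostly at the dim end.

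Probe sets of Laptm5 disagreed with each other. The brightest, which carries a suffix for shared probes, had the log2 fold change of 3.07 given above. The only Laptm5 probe set without such a suffix had 320, 343 and 463 in the EGFP+EYFP- arrays, against 203, 272 and 285 in the EGFP+EYFP+ arrays (log2 fold change 0.52, SE 0.40, adjusted p = 0.754). Its groups did not overlap, and it was 1.48-fold higher. Averaged over all probe sets of a gene, Cd53 (log2 fold change 1.24, adjusted p = 0.193), Ncf1 (0.93, adjusted p = 0.316) and Ptprc (1.31, adjusted p = 0.117) did not pass, and their other probe sets were dim. Of the 21 genes that rose, 7 passed in each of the 17 alternative settings run, namely Cd163, C1qb, Fcgr2b, Fcgr3, Lyz2, Nrros and Plek.

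Macrophage genes outside the 35 moved the same way in about equal measure. Of 24 such genes tested 12 rose, 0 fell and 12 did not pass, beside 1.77% of all genes that rose and 0.797% that fell. Their median log2 fold change was 2.49. Cd36, a scavenger receptor that endothelial and fat cells also carry, averaged 13948 ± 1459 in the EGFP+EYFP- arrays and 1146 ± 247 in the EGFP+EYFP+ arrays (SD, n = 3 each, log2 fold change 3.59, adjusted p = 0.000954). Pf4, a chemokine of platelets and of some tissue macrophages, averaged 22662 ± 5659 in the EGFP+EYFP- arrays and 3742 ± 945 in the EGFP+EYFP+ arrays (SD, n = 3 each, log2 fold change 2.59, adjusted p = 0.00303). Mrc1, the mannose receptor, had a log2 fold change of 2.96. Other members did not follow. Mertk, a receptor for dying cells, had 932, 1092 and 800.1 in the EGFP+EYFP- arrays, against 554, 1098 and 705 in the EGFP+EYFP+ arrays, and Irf8, a transcription factor of the lineage, had a log2 fold change of -0.12. Both sets of values overlap. Cebpb, a transcription factor of myeloid and many other cells, lay the other way, with 19599.5, 13272 and 19827 in the EGFP+EYFP- arrays, against 28109.8, 24359.7 and 30310 in the EGFP+EYFP+ arrays. Its groups did not overlap, and it did not pass (log2 fold change -0.67, SE 0.20, adjusted p = 0.202). A second Cebpb probe set had a log2 fold change of -1.36 without overlap and did not pass either (adjusted p = 0.13). Itgam and Siglec1 were near or below the dim level in both groups, with mean signals of 51.5 and 109 in the EGFP+EYFP- arrays and 31.7 and 101 in the EGFP+EYFP+ arrays.

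Of the 12 tested genes of the oxidase and of Fc receptor signalling outside the 35, 0 passed. Over all genes 2.57% passed, so a count of 0 in so short a list is near that share. All 3 EGFP+EYFP- values lay above all 3 EGFP+EYFP+ values for 4 of the 12, against 10.1% of all genes, and 4 had an unadjusted p under 0.05. The median log2 fold change of the 12 was 0.41. The 3 of smallest p were Btk, Cd33 and Syk, kinases and a sialic acid receptor of myeloid cells, with log2 fold changes of 2.71, 1.60 and 1.28 (adjusted p = 0.0711, 0.232 and 0.272). Cyba, the membrane partner of the oxidase's catalytic subunit, and Rac1, the widely expressed relative of Rac2, had log2 fold changes of -0.07 and -0.03 with overlapping values. Many cell types other than phagocytes use Cyba and Rac1.

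Genes of other blood cells were read on the same arrays. Over all genes 2.57% passed in either direction, so a count of 0 in lists this short is near that share and does not show absence of a change. None of 12 T and NK cell genes passed in limma, and 0 had an unadjusted p under 0.05. Their signals summed to between 1175 and 2680 per array in the EGFP+EYFP- group and to between 1169 and 2195 in the EGFP+EYFP+ group, and the defining chain Cd3d had 20.01, 18.5 and 9.83 in the EGFP+EYFP- arrays, against 15.5, 16.99 and 13.8 in the EGFP+EYFP+ arrays. The 3 of smallest p were Cd3g, Cd3e and Cd2, with log2 fold changes of 0.80, -0.50 and -0.61. Of 7 B cell genes 0 passed in limma and 0 had an unadjusted p under 0.05, with no group mean above 163, and the 3 of smallest p were Pax5, Ms4a1 and Blk (-1.37, -0.46 and 0.61). Cd3d, Cd3e and Cd3g had group means below the dim level in both groups. Of the 12 T and NK cell genes, 3 had a mean above it in the EGFP+EYFP- group and 5 in the EGFP+EYFP+ group. The brightest was Zap70, with means of 1075 and 701 and overlapping values.

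Of 11 monocyte and neutrophil genes 1 rose, beside 1.77% of all genes. It was Mmp9, a secreted protease that macrophages and osteoclasts also make, with 3186, 2156 and 1519 in the EGFP+EYFP- arrays, against 531, 615 and 741 in the EGFP+EYFP+ arrays (log2 fold change 1.77, SE 0.34, adjusted p = 0.0447). Csf3r and Mpo followed by p, with log2 fold changes of 1.85 and -0.70 that did not pass. S100a8 and S100a9, the abundant neutrophil proteins, had group means below the dim level. Of 7 red cell and platelet genes 0 passed in limma, 1 had an unadjusted p under 0.05, and the 3 of smallest p were Ppbp, Gp9 and Hba-a1 (2.03, -0.74 and -0.88).

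Of 8 mast cell genes 1 rose and 1 fell, beside 1.77% and 0.797% of all genes. Cma1, the protease chymase, had 642, 839 and 519 in the EGFP+EYFP- arrays, against 25.9, 19.98 and 65.7 in the EGFP+EYFP+ arrays, and rose (log2 fold change 3.52, SE 0.49, adjusted p = 0.011). Hdc, the enzyme that makes histamine, had 4.50, 13.9 and 28.0 in the EGFP+EYFP- arrays, against 235, 524 and 336 in the EGFP+EYFP+ arrays, and fell (log2 fold change -3.24, SE 0.50, adjusted p = 0.0167). This Hdc probe set carries the suffix for shared probes. A dimmer one with the same suffix had a log2 fold change of -0.81 with overlapping values and did not pass (adjusted p = 0.622). Cpa3, a mast cell protease, had the next smallest p and did not pass (2.29, adjusted p = 0.1). The remaining 5 of the 8 genes did not pass, and Fcer1a, Ms4a2, Mcpt4 and Tpsb2 had means below the dim level in both groups. Ms4a2 was lower in the EGFP+EYFP- arrays without overlap (log2 fold change -1.15, adjusted p = 0.138). A dimmer Ms4a2 probe set had 0.67 with overlapping values.

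**Figure D4:**
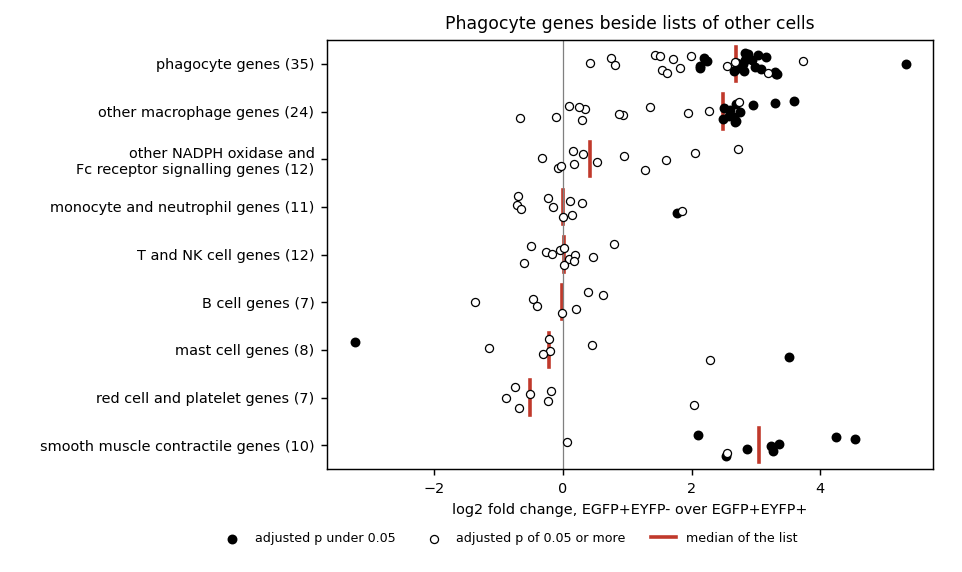
Log2 fold change, EGFP+EYFP- over EGFP+EYFP+, of each gene in the phagocyte list and in 8 lists of other macrophage, blood and muscle genes, with filled points past the threshold, red bars at list medians and the number of genes tested in brackets. The phagocyte, other macrophage and smooth muscle lists have medians of 2.68, 2.49 and 3.04, and the other 6 lists have medians between -0.52 and 0.41.

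The phagocyte genes did not move alone. Contractile genes of smooth muscle were higher in the same arrays, 8 of 10 past the threshold, beside 1.77% of all genes that rose. Their median log2 fold change was 3.04, and 10 of 10 had both group means above the dim level. The signals of the 10 summed to between 241285 and 311039 per array in the EGFP+EYFP- group and to between 76855 and 112022 in the EGFP+EYFP+ group. Actg2, the gene behind the EGFP reporter for which both groups were sorted, had a log2 fold change of 2.54, beside 4.54 for Synm and 3.26 for Des, the other genes of smallest p. Acta2, the gene behind the EYFP reporter, gave conflicting readings. Its brightest probe set, which carries a suffix for shared probes, had a log2 fold change of 0.07 with overlapping values. It ranked near the top of the arrays in both groups, with a median percentile of 99.97 in the EGFP+EYFP- arrays and 99.87 in the EGFP+EYFP+ arrays. An Acta2 probe set without that suffix had 9629, 7271 and 6409 in the EGFP+EYFP- arrays, against 412, 435 and 265 in the EGFP+EYFP+ arrays (log2 fold change 4.31, SE 0.30, adjusted p = 0.000954). Another without it had a log2 fold change of 3.07 without overlap and did not pass (adjusted p = 0.141). Whether the muscle and the phagocyte signals come from the same cells, and what part either has in the other, was not tested.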

How the data were processed

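RNA of sorted bladder cells was amplified in 2 rounds and measured on 6 Affymetrix MOE430 arrays, per the labels' protocols. The deposited intensity values are linear signals per probe set, made with GCOS per the submitters' processing notes. Its algorithm and its version were not given in the sources used here. A mean trimmed by 2% per end was equal on every array, so the authors had scaled them, which hides any difference in total RNA.

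Gene names come from the platform annotation, which matched all 65 member probe sets to a RefSeq gene table (GRCm38.p6). An offset of 25.042, the 20th percentile of the whole table, was added before taking log2. No filter was set, so that every member was tested, and arrays were not rescaled, their medians differing 1.36-fold. Tests used limma 3.58.1 under R 4.3.3 (lmFit, eBayes with a variance trend, two-sided). Adjusted p is from this fit, by Benjamini-Hochberg over 45037 probe sets at 0.05, unless another setting or a left-out array is named. In those cases it is from the named fit, adjusted over the features tested there. Standard errors are moderated. All 35 members are named, and of each other list the 3 genes of smallest p and all that passed where these were 5 or fewer. Other genes of those lists named in the text were chosen after their values were seen. Of 105 genes in the other lists 91 had a probe set named for them alone.

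On simulated data for 45037 probe sets, a log2 change of 1 was recovered in 2% of cases and one of 2 in 34%. A change of 3 was recovered in 80% and one of 4 in 78%, with 6 false calls in all. Changes were simulated only in probe sets above the dim level by mean, so these rates do not cover dim members such as Cd52 and Trem2. The members and lists were chosen with earlier results of these data known. Alternatives covered offsets, normalization, filter, variance model, weights, block, probe set choice and each array left out. Protein sequences were not used here.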

Additional observations from a re-analysis of the deposited data

How the results depend on the processing

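All members with a value had a log2 fold change above 0 in each of the 17 settings, the lowest being 0.12. The number of phagocyte genes that rose was 21, and it was 21 with an offset of 16, 19 with an offset of 100, 19 with quantile normalization or median centring, 16 with no variance trend, 23 with array weights, 19 of 34 with unshared probe sets, 20 with the mean over probe sets, 24 of 33 with the filter on dim probe sets, and 26 of 33 with 1 probe set per gene and the filter. Fewer features were tested in the 2 filtered fits, but not with array weights. The cause was not tested. The median of 2.68 became 2.0 with the mean over probe sets, which takes in dim ones. Leaving out 1 array gave 10 to 19 genes that rose, 0 that fell, and medians of 2.43 to 2.87. Over all probe sets 693 passed, 950 with array weights, 925 of 27022 with the filter, 455 with no variance trend (the cause was not tested), and 242 to 671 with 1 array left out.

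With the replicate block, 21 phagocyte genes rose and 555 probe sets passed, Coro1a being lost (adjusted p = 0.0814) and Mpeg1 gained (adjusted p = 0.0285). Whether same-numbered arrays belong together cannot be settled from 3 arrays per group. Deviations from the group means of same-numbered arrays correlated at 0.09, 0.03 and -0.07. EGFP+EYFP- arrays 1 and 2 correlated best with the same-numbered EGFP+EYFP+ array, and EGFP+EYFP- array 3 with EGFP+EYFP+ array 2 (0.13). Trem2 and Cd52 lay below the dim level by their mean over the 6 arrays, which limits what the arrays can show for them.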
